A study of Mus musculus with 6 samples.

Results

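The nuclear genes for the proteins of the mitochondrial ribosome were followed in mouse embryonic fibroblasts (MEFs) that had migrated through narrow pores. They were taken as all protein-coding GENCODE mouse genes whose symbol starts with Mrpl or Mrps followed by a digit, which gave 78 of the 55335 genes in the count table, 49 with Mrpl and 29 with Mrps symbols. Wild-type MEFs were compared in 2 groups. The Confine cells had been seeded on top of a transwell membrane with 3 μm pores and were collected after crossing it, 15 h later, and the Ctrl cells are labelled only as controls, so that how they were grown beside the membrane is not given. Messenger RNA was selected with polyT and sequenced, with 3 libraries labelled for each group. The count columns of the first and second Confine libraries held the same value in each of the 55335 genes, and they entered as 1 sample. In the study's own table behind its volcano plot the columns of these libraries differ, and the repeated counts are those of the second, so that they are named Confine 2 here and the first Confine library was not analysed here. This left 3 Ctrl and 2 Confine libraries of 22287210 to 32537550 counts. The labels do not say whether libraries came from separate cultures, so p-values measure only the spread between these libraries, which may be technical. Since only cells that crossed the membrane were collected, a change within cells and a selection among cells cannot be told apart, nor can fewer cells that carry a transcript and less of it per cell.

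Mitochondria keep a small genome whose protein-coding genes all specify subunits of the respiratory chain and ATP synthase, and a ribosome of their own translates them. Its RNAs come from the mitochondrial genome, whereas all of its proteins are encoded in the nucleus, made in the cytosol and imported. The large subunit forms peptide bonds, the small subunit reads the mRNA, and each is built of proteins with bacterial relatives and of proteins found in mitochondria only.

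Of the 9 fibroblast markers with enough counts to be tested (of 12 listed), 7 were higher in Confine by the quasi-likelihood test of edgeR (p adjusted by Benjamini-Hochberg), where 12.8% of all genes were. Col1a2 (log2 fold change 0.24, adjusted p = 0.359) and Pdgfrb (-0.36, adjusted p = 0.194) did not pass, and for Pdgfrb both Confine libraries were below all Ctrl libraries. Dcn, Lum and Thy1 were near 0. Among the leukocyte markers, Adgre1 and Cd3e were at 0 and Ptprc and Itgam had at most 2 counts in any library. Cd68, Csf1r and Cd14 were higher and Lyz2 lower in Confine, and the summed level of the list was 15.8 to 17.8 CPM in Ctrl and 35.6 to 41.3 CPM in Confine. Summed epithelial markers came to at most 0.675 CPM and endothelial markers to at most 6.23 CPM in any library. Normalized CPM are counts relative to the library size, after its scaling with trimmed mean of M-values (TMM) factors, and the part of the Cd68 and Csf1r difference in the results below was not tested.

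Summed over the family, transcripts of mitochondrial ribosomal protein genes were a little less abundant in Confine, and few single genes passed the test. The summed level of the 78 genes was 5672, 5784 and 5868 normalized CPM in Ctrl and 5344 and 5383 normalized CPM in Confine. The Confine sums were thus both below every Ctrl sum, at 0.929 of the Ctrl mean (5775 ± 98.3 normalized CPM, SD, n = 3, against 5364 ± 27.7, SD, n = 2). This ratio was 0.869 for the 33 members that share exonic bases with another annotated gene and 0.957 for the 45 that share none, a difference that was not tested. As a share of all counts, which needs no scaling factor, the Ctrl libraries gave 0.589%, 0.626% and 0.619% to the family, and the Confine libraries 0.486% and 0.497%. Part of this lower share is common to the median gene, whose log2 fold change was -0.21 when scaled by library size alone.

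A total of 77 of the 78 genes had enough counts to be tested, and 76 had at least 100 counts in every library. Their median log2 fold change, Confine against Ctrl, was -0.13, beside -0.00 over all 15881 genes tested, with 51 values below 0 and 26 above. The middle part of the family, from the lower to the upper quartile, ran from -0.30 to 0.04, whereas the same span for all genes was -0.38 to 0.40. Within ±0.5 lay 66 of the 77 genes, against 9407 of the 15881. Both Confine libraries were below all Ctrl libraries for 32 members, or 41.6%, where 23.6% of all genes were so placed, and above all of them for 12, where 25.9% of all genes were. The 2 groups overlapped for the other 33 members. Set against the Ctrl mean, the median member lay on the log2 scale at -0.02, 0.00 and 0.01 in Ctrl and at -0.14 and -0.12 in Confine, so that the shift was present in each Confine library. Scaling by library size alone moved the median of all genes to -0.21 and that of the family to -0.33, which left the family lower than the median gene.

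**Figure D1:**
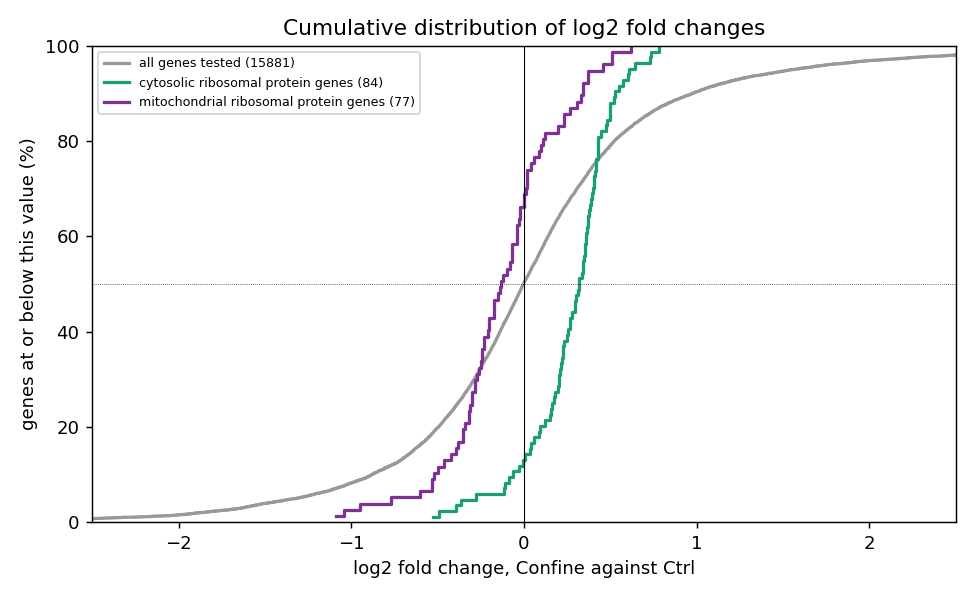
Cumulative share of genes (%) at or below each log2 fold change, Confine against Ctrl, for the 77 mitochondrial ribosomal protein genes tested, 84 cytosolic ribosomal protein genes and all 15881 genes tested. The mitochondrial family crosses the 50% line at -0.13 and the cytosolic one at 0.32, and both curves are steeper than that of all genes.

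Only 7 of the 77 genes (9.09%) passed an adjusted p of 0.05, whereas 23.0% of all genes did. Of these, 6 were lower, where 10.2% of all genes were lower, and 1 was higher, where 12.8% of all genes were higher. No member passed the study's added threshold of an absolute log2 fold change above 1.5, which 8.00% of all genes passed. At an unadjusted p under 0.05 there were 13 lower and 4 higher members, where 15.9% and 18.5% of all genes were lower and higher. The SE of a member's log2 fold change was 0.17 to 0.75 with a median of 0.18, and it was under 0.2 for 66 members. The 95% interval of the log2 fold change lay within ±1 for 71 members and within ±0.75 for 55. For these 71 members a log2 fold change beyond ±1 was thus outside the interval, whereas values closer to 0 were not all resolved from the spread between libraries.

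**Figure D2:**
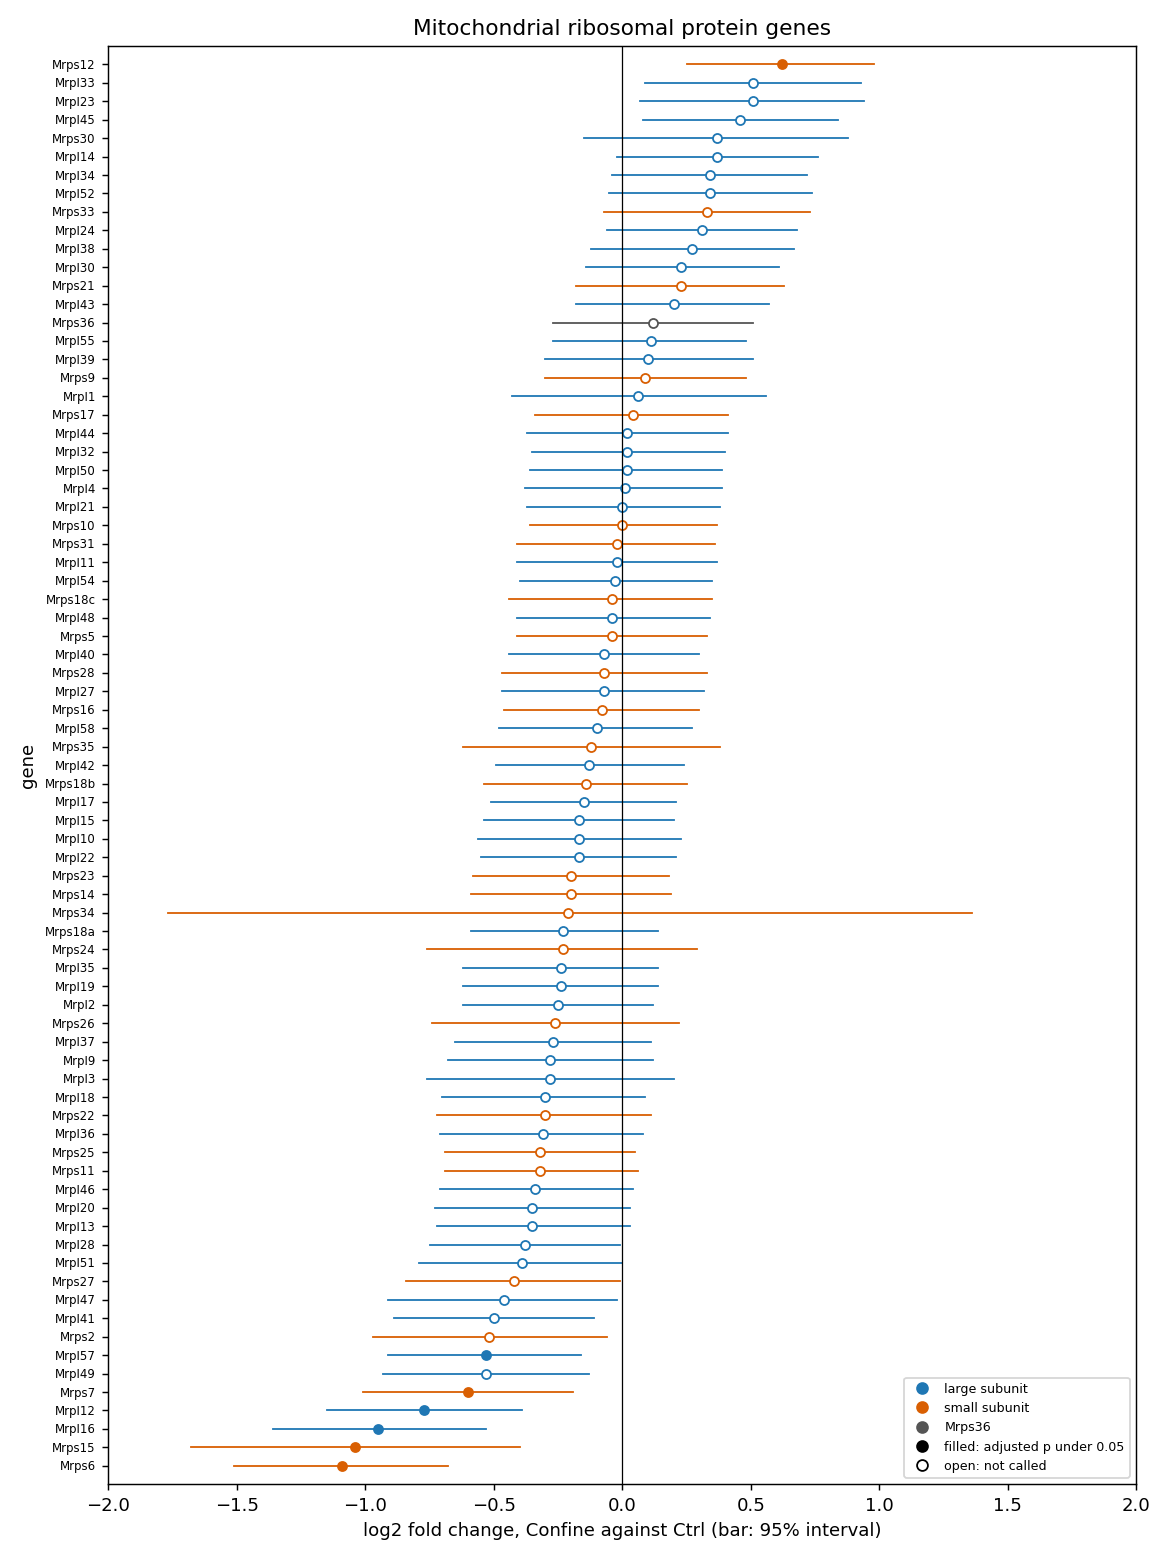
Log2 fold change, Confine against Ctrl, of each of the 77 genes tested, with 95% intervals, coloured by ribosomal subunit, where filled points have an adjusted p under 0.05. The values run from -1.09 for Mrps6 to 0.62 for Mrps12, and 6 of the 7 filled points lie at the lower end.

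Of the small-subunit proteins with bacterial relatives, Mrps6 fell most. Mrps6 (ENSMUSG00000039680.10, chr16:92058270-92112227, + strand) was measured at 159, 171 and 177 normalized CPM in Ctrl and 92.7 and 65.6 in Confine. Both Confine values were well under the lowest Ctrl value, a 2.13-fold lower level (log2 fold change -1.09 ± 0.20 SE, adjusted p = 0.000427). Its 1533 exonic bases include 159 that it shares on the same strand with Slc5a3, a myo-inositol transporter gene annotated within the same locus, and 305 shared with the gene model Gm49711, which had a mean of 4.2 counts. Slc5a3 was lower as well, with a log2 fold change of -1.50 (adjusted p = 1.68e-05), and how reads in the shared bases were assigned is not given, so the Mrps6 counts are uncertain to that extent.

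Mrps15 and Mrps7, which bind the small-subunit rRNA in bacterial ribosomes and their relatives, were also lower. Mrps15 (ENSMUSG00000028861.13, chr4:126046925-126055532, + strand) was at 29.4, 12.2 and 13.8 normalized CPM in Ctrl and at 9.19 and 8.81 in Confine. The groups did not overlap, but Ctrl 1 stood far above the other Ctrl libraries, and without it the log2 fold change of -1.04 ± 0.30 (SE, adjusted p = 0.0186) became -0.53 (adjusted p = 0.183). Mrps7 (ENSMUSG00000046756.10, chr11:115603925-115608036, + strand) went from 77.6, 61.3 and 63.7 normalized CPM to 49.8 and 39.4. Every Confine value was below every Ctrl value, with a log2 fold change of -0.60 ± 0.19 (SE, adjusted p = 0.0323), and 11.9% of the exonic bases of Mrps7 are covered by Gga3 and Mif4gd on the opposite strand, neither of which passed the test (adjusted p = 0.156 and 0.356).

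Mrps12 was the 1 member called higher in Confine. Its protein lies at the decoding centre of the small subunit and its bacterial relative is the protein in which streptomycin resistance mutations fall. Mrps12 (ENSMUSG00000045948.8, chr7:28739641-28741820, - strand) was at 64.0, 70.3 and 68.9 normalized CPM in Ctrl and at 109 and 99.1 in Confine. The Ctrl values lay close together and both Confine values above them, 1.53-fold higher on average (log2 fold change 0.62 ± 0.17 SE, adjusted p = 0.0148). Scaled by library size alone, it had a log2 fold change of 0.41 (adjusted p = 0.0948), so that the direction stayed and the call did not.

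In the large subunit, Mrpl16, Mrpl12 and Mrpl57 were lower. Mrpl16, a relative of the bacterial protein L16 near the peptidyl transferase centre, was at 50.2, 47.1 and 48.8 normalized CPM in Ctrl and 29.5 and 21 in Confine (ENSMUSG00000024683.6, chr19:11770391-11774960, + strand). The Ctrl libraries differed little and the level fell 1.93-fold (log2 fold change -0.95 ± 0.20 SE, adjusted p = 0.00164). Mrpl12, a protein of the stalk that receives translation factors and that has also been described as a partner of the mitochondrial RNA polymerase, went from 125, 118 and 106 normalized CPM to 66.3 and 70.4 (ENSMUSG00000039640.7, chr11:120484613-120489065, + strand). The lowest Ctrl value was again far above both Confine values (log2 fold change -0.77 ± 0.18 SE, adjusted p = 0.00425). Mrpl57, a mitochondria-specific protein, was at 113, 109 and 123 normalized CPM in Ctrl and at 79.8 and 79.5 in Confine (ENSMUSG00000021967.4, chr14:57826234-57829296, + strand), a log2 fold change of -0.53 ± 0.18 (SE, adjusted p = 0.0372) with no overlap of the groups.

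**Figure D3:**
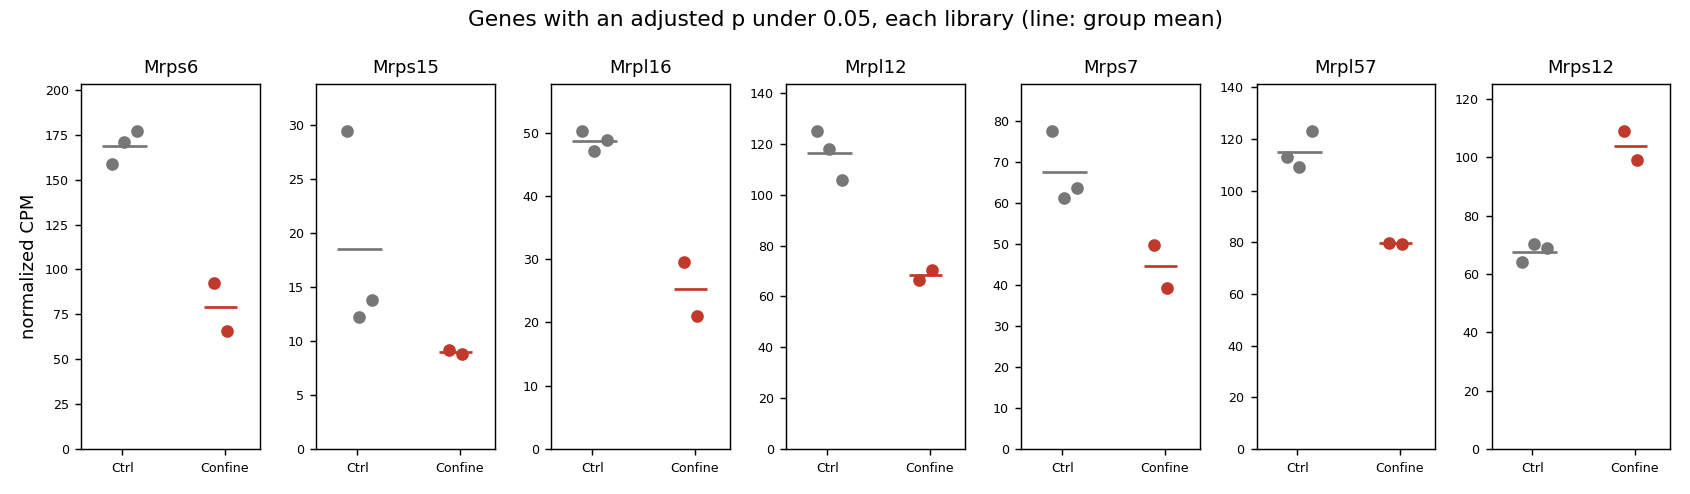
Normalized CPM of the 7 genes with an adjusted p under 0.05 in each of the 3 Ctrl and 2 Confine libraries, with each axis starting at 0 and a line at each group mean. In each panel the groups do not overlap, and Mrps15 shows Ctrl 1 at 29.4 normalized CPM above the other Ctrl libraries at 12.2 and 13.8.

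Mrps6 passed the test in each of the 15 alternative fits, and its log2 fold change stayed between -1.36 and -0.87. Mrpl16 lost its call only without Confine 3 (log2 fold change -0.72, adjusted p = 0.0873) and Mrpl12 only without Confine 2 (-0.73, adjusted p = 0.0745). The calls of Mrps15, Mrps7, Mrpl57 and Mrps12 were each lost without Ctrl 1, without Confine 2 and without Confine 3, with log2 fold changes over these fits of -1.07 to -0.53, -0.78 to -0.44, -0.55 to -0.53 and 0.55 to 0.68, and that of Mrpl57 also without Ctrl 3 (-0.50).

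A further 10 members had an unadjusted p under 0.05 and missed the adjusted threshold. The nearest was Mrpl49, a mitochondria-specific large-subunit protein, at 65.3, 52.2 and 67.1 normalized CPM in Ctrl and 44.7 and 40.6 in Confine (log2 fold change -0.53, adjusted p = 0.0520). Among the positive values, Mrpl33 had a log2 fold change of 0.51 (adjusted p = 0.0729), Mrpl45, which helps to attach the ribosome to the inner membrane, 0.46 (adjusted p = 0.0748), and Mrpl23, at the exit of the peptide tunnel, 0.51 (adjusted p = 0.0876). These members and Mrpl49 were chosen for mention after their values were seen.

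By subunit, 0 of the 50 large-subunit genes tested were higher by edgeR (0 by DESeq2 and limma-voom, and 3 at an unadjusted p under 0.05) and 3 were lower, with a median log2 fold change of -0.11, and 1 of the 26 small-subunit genes was higher and 3 were lower, with a median of -0.17. Mrps30 and Mrps18a, whose proteins sit in the large subunit despite their names, were counted there. The summed level of the large subunit was 4164 ± 89.4 normalized CPM in Ctrl (SD, n = 3) and 3898 ± 79.7 in Confine (SD, n = 2), a ratio of 0.936. That of the small subunit was 1558 ± 27.3 in Ctrl (SD, n = 3) and 1408 ± 50.5 in Confine (SD, n = 2), a ratio of 0.904. Over all genes 10.2% were lower and 12.8% higher. Of the proteins with bacterial relatives, 2 of 30 were lower in the large subunit (6.67%), and 3 were lower and 1 higher of 16 in the small subunit. Of the mitochondria-specific proteins, 1 of 20 was lower in the large subunit, Mrpl57, and 0 passed of 10 in the small subunit, where 1 had an unadjusted p under 0.05. The medians of these 4 classes lay between -0.20 and -0.05, and the difference between classes was not tested.

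Several members have a function or a name that sets them apart, and none of the following passed the edgeR test. Mrpl58, a ribosome-bound peptidyl-tRNA hydrolase that frees stalled ribosomes, was at 62.2, 61.8 and 68.6 normalized CPM in Ctrl and at 55.9 and 63.5 in Confine, which overlap (log2 fold change -0.10, 95% interval -0.48 to 0.27). Mrpl44, which carries a ribonuclease III-like fold, was at 30.8 to 38.4 normalized CPM in Ctrl and at 34.4 and 37.9 in Confine (log2 fold change 0.02, 95% interval -0.37 to 0.41). Mrpl41, also described as a pro-apoptotic protein, was at 58.1, 65.5 and 51.7 against 43.1 and 39.6 normalized CPM without overlap, and its log2 fold change of -0.50 had an adjusted p of 0.0624. It was called in 5 of 15 alternative fits, among them DESeq2 (adjusted p = 0.0351), library size alone (0.00888) and the fit without Ctrl 3 (0.0411), and the adjusted p was up to 0.343 over all of them. Mrps36, known as a component of the 2-oxoglutarate dehydrogenase complex and placed in no subunit here, had a log2 fold change of 0.12 (95% interval -0.27 to 0.51). Mrps30, once named for a link to cell death, was at 8.0 ± 1.97 (SD, n = 3) and 10.3 ± 2.03 (SD, n = 2) normalized CPM.

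The S18 protein exists in 3 forms in mammalian mitochondria. Mrps18a, in the large subunit, was at 141, 130 and 147 normalized CPM in Ctrl and 118 and 120 in Confine, without overlap (log2 fold change -0.23, adjusted p = 0.398). Mrps18b had a log2 fold change of -0.14 and Mrps18c of -0.04, both with overlapping groups. The summed reads of Mrps18b may also be divided with the processed pseudogene Gm13552, which matches it at 99.8% over 417 bp and had a mean of 294.6 counts. In all, 18 members have another annotated transcript that matches over 300 bp or more at an identity of at least 95%, none of them among the 7 called, and apart from the copies of Mrps18b, Mrps10 and Mrps33 (325.4 and 426.2 mean counts for the latter pair) those matches had a mean of at most 56.6 counts.

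Level per exon length, in normalized CPM per kilobase, ran from 0.23 to 292 over the members tested in Ctrl, with a median of 28.1, and from 0.201 to 259 in Confine, with a median of 25.1. Length counts every annotated exonic base of a gene, whether or not its transcript is expressed, so the order depends on the annotation. Mrpl17, for instance, had 285 normalized CPM in Ctrl but 37.5 per kilobase over 7605 exonic bases. The top 5 over both groups were Mrpl28, Mrpl14, Mrpl54, Mrpl34 and Mrpl2, all of the large subunit. In Ctrl, Mrpl28 stood first at 292 normalized CPM per kilobase and Mrpl14 followed at 201. In Confine, Mrpl14 stood first at 259 and Mrpl28 followed at 224. Mrpl28 was at 396, 384 and 429 normalized CPM in Ctrl and 294 and 324 in Confine (log2 fold change -0.38, adjusted p = 0.133), and Mrpl14 at 169, 204 and 197 against 216 and 276 (log2 fold change 0.37, adjusted p = 0.164). Neither change passed the test, and the change of order was not tested. Mrpl54 was at 178 and 174 normalized CPM per kilobase in Ctrl and Confine (log2 fold change -0.03, 95% interval -0.40 to 0.35), and Mrpl34 and Mrpl2 had log2 fold changes of 0.34 (adjusted p = 0.193) and -0.25 (adjusted p = 0.346). Across the 77 genes, Spearman's rho of the log2 fold change was 0.10 with level and -0.03 with exon length, as descriptions over genes of the same 5 libraries.

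The bottom of the range was Mrps34, needed for a stable small subunit in mice, with 28, 2 and 9 counts in Ctrl and 14 and 9 counts in Confine. Its log2 fold change of -0.21 had a 95% interval of -1.77 to 1.36, and 77.8% of its exonic bases are also annotated to Nme3 on the same strand, listed at a mean of 0 counts, or Mapk8ip3 on the opposite strand, at 2724.4. Mrpl53 had 0 counts in all 5 libraries, which allows up to 0.101 to 0.128 CPM, the level of 3 counts, for counting error only. Of the 790 exonic bases of Mrpl53, 88.0% are shared with Gm42688 on the same strand, which had a mean of 6.6 counts. The treatment of reads that fall in more than 1 gene is not given, so that for neither gene can a low count be read as low expression. The 32 members tested that share any exonic base with another gene had a median log2 fold change of -0.25 (0 higher and 3 lower), and the 45 without a shared base had a median of -0.04 (1 higher and 3 lower).

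A total of 25 members have a protein-coding neighbour whose start site lies within 500 bp of their own on the opposite strand, so that a pair of genes is read away from a common promoter region or with a short overlap. This set was examined after the values had been seen. Of the 23 such neighbours that are not members themselves and were tested, 7 were lower and 1 was higher, beside 10.2% lower and 12.8% higher over all genes. Among the members of these pairs 3 passed the test. Mrps12 and Sars2, the mitochondrial seryl-tRNA synthetase, start 172 bp apart, and whereas Mrps12 rose, Sars2 was at 21.3, 17.1 and 20.7 normalized CPM in Ctrl and 14.3 and 10.5 in Confine. The Confine values of Sars2 were both below those of Ctrl (log2 fold change -0.67 ± 0.21 SE, adjusted p = 0.0304), a call lost without Ctrl 1 (-0.61, adjusted p = 0.106) and without Confine 3 (-0.46, adjusted p = 0.343). This was the 1 pair in which both genes passed the test with opposite signs.

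Mrpl57 and Ska3, a gene of the outer kinetochore complex, start 49 bp apart and both were lower, Ska3 with a log2 fold change of -1.52 (adjusted p = 2.66e-05). In the other pairs with a called neighbour the member did not pass. The neighbours of Mrps18c (Helq, a DNA helicase, -1.42), Mrpl27 (Eme1, a subunit of a repair endonuclease, -1.39), Mrpl37 (Cyb5rl, -1.36), Mrpl51 (Ncapd2, a condensin subunit, -1.30) and Mrpl13 (Mtbp, -1.26) were lower, whereas those members had log2 fold changes of -0.39 to -0.04. Of these calls, that of Cyb5rl was lost without Confine 2 (-1.0, adjusted p = 0.103) and that of Helq without Confine 3 (-1.20, adjusted p = 0.0755). Fau, a cytosolic ribosomal protein gene 59 bp from Mrpl49, was higher (log2 fold change 0.73, adjusted p = 0.00796, and 0.47 with adjusted p = 0.2 without Confine 3), where Mrpl49 was at -0.53. The difference within a pair was not tested.

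**Figure D4:**
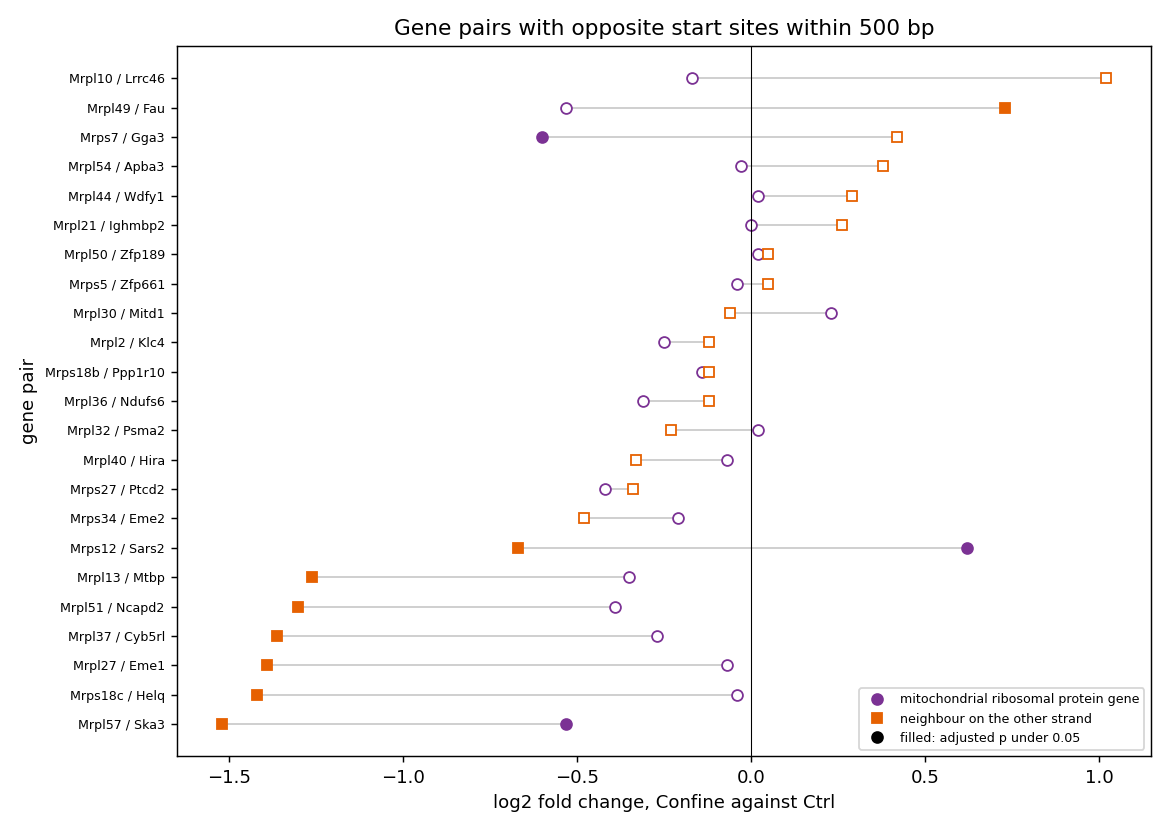
Log2 fold change, Confine against Ctrl, of members (circles) and of their 23 tested neighbours that start within 500 bp on the other strand (squares), joined by pair, where filled symbols have an adjusted p under 0.05. The neighbours span -1.52 to 1.02 and these members -0.60 to 0.62, and Mrps12 with Sars2 is the 1 pair filled on both sides of 0.

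Promoter windows from RefSeq (GRCm38.p6, 250 bases before to 50 after a start site) were matched for 69 members, in 75 windows. Letters bound by factors that are known regulators of nuclear genes for mitochondria were sought on both strands. The ETS-family letters CCGGAAG, the core read by GABP (nuclear respiratory factor 2), were in 26 member windows, or 34.7%, beside 17% of 13190 windows of tested genes and 8.86% of all 32851 windows. The YY1 letters ATGGCGG were in 13 (17.3%, beside 7.7% and 4.05%), the NRF1 letters GCGCATG, which can overlap those of YY1 by the 3 bases ATG, in 8 (10.7%, beside 6.65% and 3.91%) and the E-box CACGTG in 7 (9.33%, beside 9.7% and 7.15%). Members with the ETS letters had a median log2 fold change of -0.10 (25 genes) and those without of -0.17 (43 genes). The order was the other way for the YY1 letters (-0.23 with, 12 genes, and -0.09 without), the E-box (-0.27 with, 5 genes, and -0.10 without) and the NRF1 letters (-0.15 with, 8 genes, and -0.12 without), and none of these differences was tested. Of the 7 called members, the ETS letters were in the windows of Mrps12 and Mrpl57.

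Windows of 4 called members are given to show the 1 gene called higher (Mrps12) beside the gene with the largest fall (Mrps6). Also given are windows of a pair of large-subunit genes called lower, with and without the ETS letters (Mrpl57 and Mrpl12). Each runs 5′ to 3′ on the gene's strand from 250 bases before to 20 after the RefSeq start, at chr7:28741802-28742071 (- strand) for Mrps12, chr16:92058086-92058355 (+ strand) for Mrps6, chr14:57825989-57826258 (+ strand) for Mrpl57 and chr11:120484387-120484656 (+ strand) for Mrpl12, and capitals mark CCGGAAG and CCAAT, the letters bound by NF-Y.
Mrps12: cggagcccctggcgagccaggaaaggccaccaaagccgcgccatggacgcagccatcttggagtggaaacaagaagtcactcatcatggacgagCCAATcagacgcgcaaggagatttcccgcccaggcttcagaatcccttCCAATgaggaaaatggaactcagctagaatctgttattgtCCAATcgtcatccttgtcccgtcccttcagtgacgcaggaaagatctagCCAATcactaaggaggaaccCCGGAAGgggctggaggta
Mrps6: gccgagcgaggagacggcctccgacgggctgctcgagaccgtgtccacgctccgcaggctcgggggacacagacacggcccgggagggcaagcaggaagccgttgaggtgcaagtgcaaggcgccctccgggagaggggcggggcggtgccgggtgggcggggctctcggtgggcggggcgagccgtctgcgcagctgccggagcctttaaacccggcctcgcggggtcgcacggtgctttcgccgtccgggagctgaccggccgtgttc
Mrpl57: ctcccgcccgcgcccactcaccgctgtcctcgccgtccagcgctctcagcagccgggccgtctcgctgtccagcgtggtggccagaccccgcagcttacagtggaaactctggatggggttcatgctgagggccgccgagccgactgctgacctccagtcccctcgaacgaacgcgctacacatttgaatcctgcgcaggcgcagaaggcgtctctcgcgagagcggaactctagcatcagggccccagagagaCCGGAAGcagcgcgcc
Mrpl12: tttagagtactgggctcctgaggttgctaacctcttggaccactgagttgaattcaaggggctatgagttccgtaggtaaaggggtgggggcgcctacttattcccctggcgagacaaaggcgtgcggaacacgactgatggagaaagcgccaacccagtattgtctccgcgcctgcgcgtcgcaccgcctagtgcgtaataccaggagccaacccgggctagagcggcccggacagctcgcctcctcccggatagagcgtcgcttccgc
The Mrps12 window holds CCAAT 4 times on the gene's strand, with first bases at -156, -108, -68 and -19 from the start, followed by CCGGAAG from base 2 after it. CCAAT was added to the search after this window had been seen. It is present on either strand in 30 member windows (40%) and in 37.4% of all windows, while 4 or more copies are present in 1.06% of all windows, 1.75% of those of tested genes and, in Mrps12 alone, 1.33% of member windows. Sars2, which was lower, starts 172 bp from Mrps12, so that the 4 Mrps12 copies lie between both starts. Of the other called members, Mrps15, which was lower, also has CCAAT in its window. Members with CCAAT had a median log2 fold change of -0.11 (26 genes) and those without of -0.15 (42 genes), a difference that was not tested.

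The other genes of mitochondrial translation were counted in lists. Of the 5 ribosomal proteins that carry other symbols, 0 passed by edgeR, DESeq2 or limma-voom: Dap3, a GTP-binding protein of the small subunit, had a log2 fold change of 0.48 (adjusted p = 0.0639, the 1 gene with an unadjusted p under 0.05), Aurkaip1 0.29 (adjusted p = 0.262), Chchd1 -0.12 (adjusted p = 0.726), Gadd45gip1 -0.18 (adjusted p = 0.749) and Ptcd3 -0.34 (adjusted p = 0.268). Of 13 translation factors and their partners 0 passed by the same tools, with 1 at an unadjusted p under 0.05 and a median of -0.04. Among 26 genes for ribosome assembly and rRNA handling, Mrm1, a methyltransferase of the large rRNA, was higher (8.45 ± 0.638, SD, n = 3, against 13.5 ± 1.07, SD, n = 2, normalized CPM, log2 fold change 0.67, adjusted p = 0.0260) and Mpv17l2 was lower (16.9 ± 2.40, SD, n = 3, against 9.64 ± 0.401, SD, n = 2, log2 fold change -0.81, adjusted p = 0.00938). Of these 26 genes 7.69% were called, where 23.0% of all genes were, and their median log2 fold change was -0.24. Mrm1 was called in 9 of 15 alternative fits and lost its call without Ctrl 1, Ctrl 3, Confine 2 or Confine 3 (log2 fold change 0.59 to 0.75), and Mpv17l2 lost its call without Confine 2 (-0.77) or Confine 3 (-0.85).

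Of 20 genes that charge mitochondrial tRNAs, 4 were lower and 0 higher by edgeR and limma-voom (5 and 0 by DESeq2), where 10.2% of all genes were lower and 12.8% higher by edgeR, with a median log2 fold change of -0.22 and 0 higher and 6 lower at an unadjusted p under 0.05. Gatb and Qrsl1, which encode subunits of the amidotransferase that makes glutaminyl-tRNA in mitochondria, fell most. Gatb was at 39.0, 22.7 and 39.8 normalized CPM in Ctrl and 8.85 and 11.0 in Confine, which is 3.40-fold lower (log2 fold change -1.77 ± 0.25 SE, adjusted p = 3.74e-05). Qrsl1 was at 19.8, 16.0 and 20.7 in Ctrl and 8.92 and 6.47 in Confine (log2 fold change -1.29 ± 0.23 SE, adjusted p = 3.59e-04). Both passed in each of the 15 alternative fits. The remaining subunit of the enzyme, Gatc, had a log2 fold change of -0.49 (adjusted p = 0.0875), Mars2, the methionyl-tRNA synthetase, was lower at -1.0 (adjusted p = 0.00517, and 0.0759 without Confine 2, at -0.91), and Sars2 is described above.

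Of 8 genes for mitochondrial transcription and mRNA stability, 1 was lower and 0 higher, where 10.2% of all genes were lower and 12.8% higher. This was Tfam, which packages mitochondrial DNA (33.2 ± 1.98, SD, n = 3, against 21.6 ± 1.64, SD, n = 2, normalized CPM, log2 fold change -0.62, adjusted p = 0.0208), a call lost without Ctrl 1 (-0.64), Confine 2 (-0.70) or Confine 3 (-0.55). Of 11 regulators of mitochondrial biogenesis, 9 were tested and 1 of these was lower (11.1%, where 10.2% of all genes were). This was Ppargc1b, a coactivator, at -0.89 (adjusted p = 0.0276, and -0.80 without Ctrl 1 and -0.51 without Confine 2, where it was not called), while its relative Ppargc1a had 0 counts. Among the 13 mRNAs that the mitochondrial ribosome translates, 3 were called (23.1%, where 23.0% of all genes were). Of these, mt-Co1 was higher (log2 fold change 0.52, adjusted p = 0.0451) and mt-Nd3 (-2.69, adjusted p = 0.00853) and mt-Atp6 (-0.77, adjusted p = 0.0464) were lower by edgeR. DESeq2 and limma-voom did not call mt-Nd3 (adjusted p = 0.0906 and 0.109), and limma-voom did not call mt-Atp6 (adjusted p = 0.0734). In the 15 alternative fits mt-Co1 passed in 6, mt-Nd3 in 10 and mt-Atp6 in 9. The median of the 13 was -0.28, and it ranged from -0.51 to -0.06 when a library was left out. Their summed level was 6808, 5674 and 5819 normalized CPM in Ctrl and 7367 and 6194 in Confine, which overlap. In counts, mt-Nd3 had 93, 321 and 22 counts in Ctrl and 25 and 21 in Confine, mt-Atp6 208, 357 and 220 against 172 and 150. Each of the 3 genes has a near-identical pseudogene copy with counts of its own. For mt-Nd3 and mt-Atp6 (means of 96.4 and 221.4 counts) the copies had 243.6 and 211.0, so that both calls are uncertain. The copies of mt-Co1 (84731.6 counts) had at most 1402.8, and how reads that match both were assigned is not given. Such copies were found for 8 of the 13 genes, where those of mt-Nd2, mt-Nd4 and mt-Nd5 had at most 28.4 counts. Those of mt-Co2 and mt-Co3 had up to 296.6 and 447.6 (genes 205.0 and 340.4), so that the doubt is not limited to those called. Without Ctrl 2 none of them passed (0.46, -1.32 and -0.49), nor without Confine 2 (0.48, -2.70 and -0.75) or Confine 3 (0.55, -2.68 and -0.78), and mt-Co1 was also lost without Ctrl 3 (0.44).

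For the ribosome of the cytosol, positive log2 fold changes (73 genes) outnumbered negative ones (11). Of the 84 cytosolic ribosomal protein genes tested, 9 were higher and 0 lower by edgeR (10.7% called, below the 23.0% of all genes called and the 12.8% higher) and limma-voom, and 10 and 2 by DESeq2, with 23 higher and 2 lower at an unadjusted p under 0.05, and their median log2 fold change was 0.32. Their summed level was 62079, 69015 and 65402 normalized CPM in Ctrl and 71937 and 92721 in Confine, which did not overlap. As a share of all counts the groups did overlap, at 6.45%, 7.47% and 6.9% in Ctrl against 6.54% and 8.56% in Confine. The Confine libraries stood far apart, and without Confine 3 the median was 0.11 with 0 genes called. With scaling by library size alone the median was 0.11, with 1 gene higher and 2 lower, beside -0.33 for the mitochondrial family. The difference between both families was not tested.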

How the data were processed

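RNA-seq libraries of wild-type MEFs were compared as Ctrl (n = 3) and Confine (n = 2 distinct libraries). The authors deposited raw counts per gene in 1 table. The submitters' processing notes name Trim Galore 0.6.10, HISAT2 2.1.0, SAMtools 1.5, featureCounts and mm10. The paper's methods describe a second cDNA strand made with dUTP and PCR of the strand that lacks U, which keeps strand information. The strand setting of the counting, the annotation and the treatment of reads in several genes are not given in the sources used here. Whether reads from genes on the opposite strand entered the counts is therefore unknown. A total of 55154 of 55335 IDs were matched to GENCODE M21 (GRCm38). 5 pseudogenes with matching names were left out.

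Genes were kept by filterByExpr and fitted by the quasi-likelihood test in edgeR 4.0.16 with TMM factors (R 4.3.3). P-values were adjusted by Benjamini-Hochberg over 15881 genes, and called below 0.05. Residual degrees of freedom were 3, with a prior of 14.8. Scripts were tested on simulated data, with changes given to genes drawn at random from all tested genes. The fit called 4.76% of those with an absolute log2 fold change of 0.5, 58.5% at 1 and 88.2% at 2. Most changes of 0.5 were thus missed in the simulated data. Copies were found with blastn 2.17.0. Alternatives were DESeq2 1.42.0, limma-voom 3.58.1, other scalings and filters, a replicate block and leaving out each library.

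The members, gene lists and tests were chosen with earlier results of these data known. Named were all called members, the 5 with the highest level per length, 10 with a particular role or name, the 5 ribosomal proteins with other symbols and up to 4 called genes from each other list.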

Additional observations from a re-analysis of the deposited data

How the results depend on the processing

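The count of members called, 1 higher and 6 lower, moved with the setting. At an adjusted p under 0.01 it was 0 higher and 3 lower, with the added fold threshold 0 and 0, and with library size alone 0 and 18, where 26.8% of all genes were called in place of 23.0%. With the identical Confine columns taken as 2 samples it was 3 and 14, with 33.4% of all genes called. When each library was left out in turn it was 0 to 4 higher and 2 to 9 lower: 0 and 3 without Ctrl 1, 4 and 9 without Ctrl 2, and 0 and 2 without Confine 2 or Confine 3, where the lone Confine library is assumed to vary like the others. The share of all genes called moved too, from 12.4% to 28.5% over the fits that left out a library. With DESeq2 size factors, upper-quartile factors, DESeq2, limma-voom and both other filters it was 1 higher and 6 to 8 lower.

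With the replicate number as a block, the count was 0 higher and 3 lower with the repeated library as number 2, the number that the study's own table gives these counts, and 15.9% of all genes were called. Under its other label, number 1, it was 7 and 10, with 31.1% of all genes called. Same-numbered libraries did not deviate together (r = -0.053 and 0.052), so the numbers were not taken to pair the libraries, and the block left 1 residual degree of freedom.

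The family's median log2 fold change was -0.33 with library size alone, -0.11 with limma-voom, -0.11 with the block and the repeated library as number 1, -0.15 with the identical columns as 2 samples, and -0.16 to -0.11 when a library was left out, with -0.16 without Confine 3.

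Directions turned for 6 named members that were never called. Mrpl44 (0.02) went to -0.19 with library size alone, -0.08 with the block and the repeated library as number 1, -0.02 with the identical columns as 2 samples and -0.08 to 0.09 when a library was left out. Mrps36 went to -0.09 with library size alone. Mrps18c went to 0.08 with the block and the repeated library as number 1, and ranged from -0.14 to 0.07 when a library was left out, as Mrpl54 did from -0.13 to 0.07 and Mrps18b from -0.32 to 0.01. Mrps34 went to 0.35 with limma-voom and 1.01 with the block and the repeated library as number 2, and ranged from -0.72 to 0.88. The cause was not tested. Among the members, only Mrps34 and Mrpl53 fell below 3 counts, or 0.101 to 0.128 CPM, in any library. The parts of depth and of their shared exonic bases in this were not tested.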
